A study of Mus musculus with 2 samples.

Results

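Genes of neuronal growth and of the neuronal cytoskeleton were examined in mouse embryonic fibroblasts (MEFs) with and without Bmi1. The 10 genes were Gap43, Stmn2, Dpysl3, Map2, Mapt, Tubb3, Tubb2b, Nes, Ncam1 and Gfra1. They were chosen by name as neural-type genes at a time when the null and wild-type signals of these same arrays were already known, so the differences between the arrays below are a description. All probe sets that the platform annotation gave to exactly 1 of these genes were taken, 29 of the 34958 probe sets that carried a single gene symbol, and the 10 genes stood among 18194 genes on the array.

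The series holds 2 arrays. One was hybridised with RNA of a Bmi1 wild-type MEF line and the other with RNA of a Bmi1 null line (labelled knockout), derived from littermate embryos whose age was not given in the sources used here. Both lines carried the same immortalising TBX2 construct with puromycin selection, were labelled as male C57BL/6, and had received no treatment beyond culture in serum. Each genotype was therefore 1 line, 1 culture and 1 array, so there was no replicate and no test, and line, genotype and array cannot be told apart. Counts of genes past 2-fold describe these 2 arrays.

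Gap43 is a phosphoprotein of the growth cone membrane, and its relatives in function Stmn2 and Dpysl3 act on microtubules during axon growth. Map2 and Mapt (tau) bind along microtubules, of dendrites and axons respectively, and Tubb3 and Tubb2b are beta-tubulin isotypes that are abundant in young neurons. Nes (nestin) is an intermediate filament protein of neural progenitors that is also made by other dividing cells, Ncam1 is an adhesion molecule of the immunoglobulin superfamily, and Gfra1 is the membrane-anchored receptor that binds GDNF and signals with Ret. Ncam1 and Nes are also known in muscle precursors. Bmi1 belongs to Polycomb repressive complex 1, which ubiquitylates histone H2A.

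Promoter sequence was at hand for 4 of the 10 genes in the RefSeq promoter table of build GRCm38.p6, which covers 250 bases before and 50 bases after an annotated start. The windows of Map2, Tubb3 and Nes are shown because these were the measured genes with a window in the table. In null cells 1 was higher, 1 was lower and 1 had no direction. CpG content is also a promoter feature to which the study relates H2A ubiquitylation, besides the histone mark H3K27me3 and DNA methylation. Capitals mark CpG dinucleotides, each sequence runs 5′ to 3′ on the plus strand, and bases that lie inside the annotated gene are left out.
Map2, chr1:66175079-66175201: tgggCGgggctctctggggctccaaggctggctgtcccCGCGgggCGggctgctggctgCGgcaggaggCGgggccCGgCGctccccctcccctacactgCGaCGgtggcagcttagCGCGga
Tubb3, chr8:123411303-123411552: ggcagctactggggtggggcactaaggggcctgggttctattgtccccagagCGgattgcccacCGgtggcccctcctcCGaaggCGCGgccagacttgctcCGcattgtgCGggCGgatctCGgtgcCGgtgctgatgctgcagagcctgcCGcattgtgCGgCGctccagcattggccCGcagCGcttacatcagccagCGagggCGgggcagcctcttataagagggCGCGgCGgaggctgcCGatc
Nes, chr3:87970843-87971092: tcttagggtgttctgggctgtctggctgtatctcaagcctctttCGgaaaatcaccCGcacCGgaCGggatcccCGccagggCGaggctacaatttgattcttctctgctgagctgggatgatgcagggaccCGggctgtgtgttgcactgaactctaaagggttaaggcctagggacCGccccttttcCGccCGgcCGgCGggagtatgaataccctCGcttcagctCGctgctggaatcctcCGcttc

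Over the whole window of 300 bases, Map2 had 37 CpG, more than 94.4% of the 32851 windows in the table, and a G+C content of 77.7%. Tubb3 had 26 CpG (more than 83.1% of windows), Nes 18 (70.3%) and Gfra1 12 (60.4%), against a median of 7 over all windows. In the Gfra1 window, 0 bases lay before the annotated gene, so it does not show the sequence upstream of that gene. In the Map2 window, 123 bases lay before the gene, and these held 12 of the 37 CpG. The motif GGGCGG, searched on both strands, lay in the windows of Map2, Tubb3 and Nes and not in that of Gfra1, and 35.7% of all windows held it. The motif TATAAA, also searched on both strands, was in none of the 4 windows and in 13.6% of all windows. These matches describe sequence and were not tested against the expression data.

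Signals were linear MAS5 values, 1 per probe set, scaled by the authors so that the trimmed mean was 500 on both arrays. Values below 100, which is 0.2 times that mean, were set to this floor before a log2 ratio (null over wild-type) was taken, and a probe set below it on both arrays was called not measured. A fold taken against the floor is a lower bound, marked here by the words at least. The targeted gene was lower on the null array at one Bmi1 probe set (9933 in wild-type, 2146 in null) and close to equal at the other (931 and 831). Where these probes lie relative to the deletion is not known here. Transcripts of the Y chromosome went against the label male on the null array, where Eif2s3y, Uty and Kdm5d read 23.3, 26.5 and 15.3, against 1683, 1187 and 712 in wild-type cells. Xist, the transcript of the inactive X chromosome, read 153 on the wild-type and 124 on the null array at the probe set 1436936_s_at. In the same order, 1427263_at gave 2.30 and 25.0 and 1427262_at gave 6.13 and 2.39, so neither of these reached the floor. The part of the Y transcript difference between the lines in the results below was not tested.

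Of the 29 probe sets, 15 were measured and 14 were below the floor on both arrays, and of the 10 genes, 7 were measured. Gap43 was far lower in null cells and Tubb3 was lower, Map2 was far higher, and Ncam1 and Tubb2b were about 2-fold higher. Dpysl3 and Nes differed less than 2-fold, and Stmn2, Mapt and Gfra1 were below the floor on both arrays. Where a gene had several probe sets, the one with the greatest mean of both log2 signals stood for the gene. At least 2-fold higher signal in null cells was thus found for 3 of 7 measured genes (42.9%), against 5.73% of the 11766 measured genes of the array, and at least 2-fold lower signal for 2 of 7 (28.6%), against 5.16%. By probe set, 5 of 15 (33.3%) were at least 2-fold higher, against 5.06% of all 20620 measured probe sets with 1 symbol, and 2 of 15 (13.3%) were at least 2-fold lower, against 5.10%. Since the genes were picked with these arrays in view, nothing is read from the distance to the background. The median log2 ratio of the 7 genes was 0.54, against 0.0060 over all measured genes, and the median size of the log2 ratio regardless of sign was 1.17 against 0.30. The 7 ratios did not share a direction, 5 being above 0 and 2 below, with an SD of 2.33 between the genes.

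**Figure D1:**
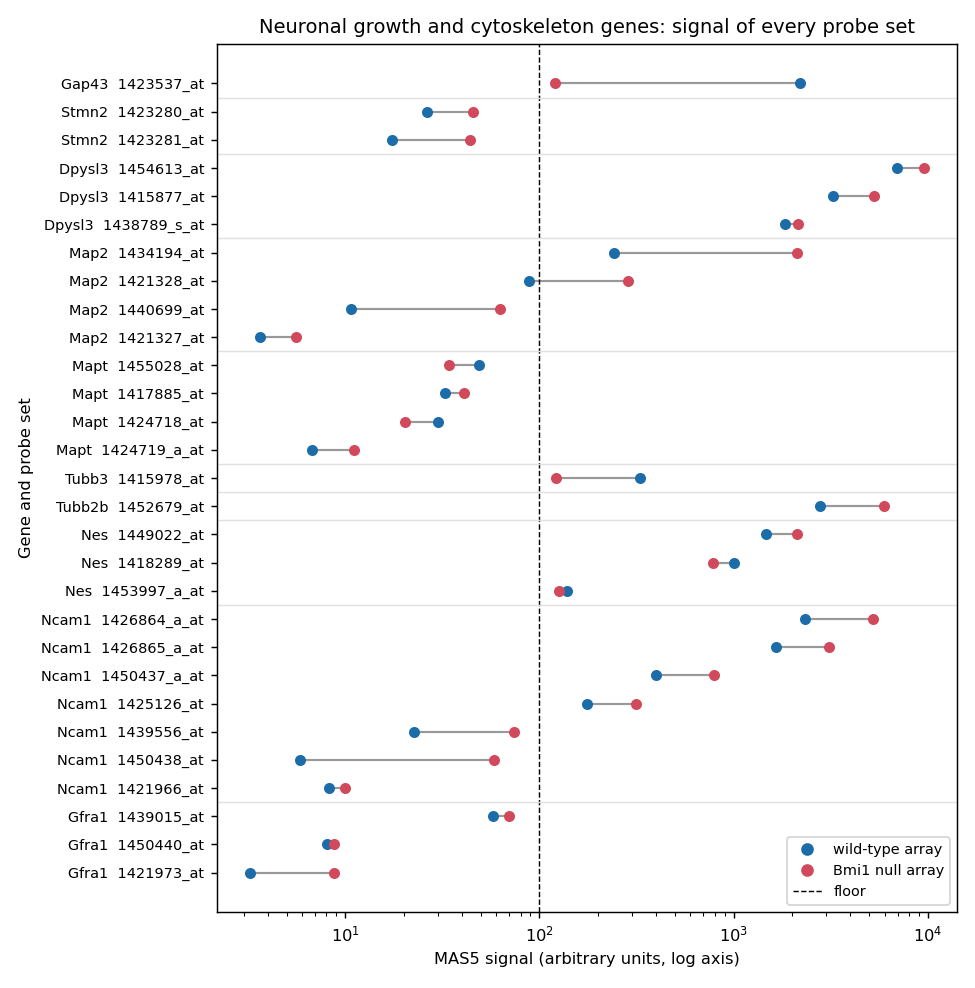
MAS5 signal (x axis, arbitrary units, log scale) of all 29 probe sets of the 10 genes (y axis, grouped by gene) on the wild-type array (blue) and the Bmi1 null array (red), joined by a grey line, with the floor dashed. Gap43 reads 2211 on the wild-type and 120 on the null array and Map2 243 and 2132 at its main probe set, while every probe set of Stmn2, Mapt and Gfra1 lies left of the floor on both arrays.

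Gap43, the growth cone gene, gave the largest difference of the 10. Its only probe set (1423537_at) read 2211 on the wild-type and 120 on the null array. The wild-type signal was far above the floor and the null signal just above it. The signal was 18.4-fold lower in null cells (log2 ratio −4.21). With a single probe set, no second measurement of Gap43 on these arrays was available.

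Stmn2, a neuronal stathmin that destabilises microtubules, was not measured on either array. Its probe sets read 26.4 and 17.5 in wild-type cells and 45.5 and 44.1 in null cells. All 4 values lay below the floor, so no ratio is given. Dpysl3, a collapsin response mediator protein also known as CRMP4, gave signal in both lines. Its probe sets read 6918, 3267 and 1834 in wild-type cells, and in the same order 9549, 5286 and 2146 in null cells. All 3 were higher in null cells, by 1.38-fold, 1.62-fold and 1.17-fold, and the mean log2 ratio was 0.46 ± 0.23 (SD, n = 3 probe sets of the same 2 arrays). Probe sets share the RNA and the array, so such an SD covers probe set error only and not the spread between cultures.

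Map2, which stabilises microtubules in dendrites, was the gene with the largest difference in the other direction. Its probe set 1434194_at read 243 on the wild-type and 2132 on the null array, 8.77-fold higher (log2 ratio 3.13). The probe set 1421328_at read 88.4 in wild-type, below the floor, and 286 in null cells, at least 2.86-fold higher. The remaining Map2 probe sets, 1440699_at and 1421327_at, read 10.7 and 3.65 in wild-type and 62.7 and 5.59 in null cells, all below the floor. The null value was above the wild-type value at 4 of 4 probe sets, but only 1 was above the floor on both arrays, and that probe set carries the fold. Mapt, the axonal counterpart, was not measured. Its 4 probe sets read between 6.74 and 49.1 in wild-type cells and between 11.1 and 40.9 in null cells, with 2 above and 2 below their wild-type value.

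The beta-tubulin isotypes differed in opposite directions. Tubb3, the isotype detected by the neuronal antibody TuJ1, read 330 on the wild-type and 122 on the null array at its single probe set (1415978_at), 2.70-fold lower (log2 ratio −1.43). Tubb2b read 2775 on the wild-type and 5932 on the null array at 1452679_at, 2.14-fold higher (log2 ratio 1.10). The Tubb3 values were low, and with a floor of 0.4 times the trimmed mean the log2 ratio was −0.72, below 2-fold. Both isotypes rested on 1 probe set each. A probe set annotated to both Tubb2b and the pseudogene Tubb2a-ps2, left out of the counts, read 1005 and 1780, 1.77-fold higher.

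Nes was the gene whose probe sets disagreed. The 3 probe sets read 1467, 1005 and 139 in wild-type cells, and in the same order 2128, 785 and 126 in null cells. The first was 1.45-fold higher in null cells and the others were 1.28-fold and 1.10-fold lower. Their mean log2 ratio was 0.015 ± 0.47 (SD, n = 3 probe sets), so no direction can be given for Nes from these arrays. Across the array, the error SD of a single probe set's log2 ratio was 0.29, and 0.34 where the dimmer of the pair read 100 to 500. It was estimated from 4591 pairs of probe sets of the same gene, all above the floor in both lines. The difference between the 2 probe sets of a pair has a larger SD than this.

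Ncam1 had the most probe sets and the closest values among them. The 4 measured probe sets read 2340, 1650, 398 and 176 in wild-type cells, and in the same order 5256, 3107, 797 and 315 in null cells. All were higher in null cells, by 2.25-fold, 1.88-fold, 2.00-fold and 1.79-fold, so that 2 of the 4 reached 2-fold and 2 were just short of it. The mean log2 ratio was 0.98 ± 0.14 (SD, n = 4 probe sets), which is 1.97-fold. The remaining 3 probe sets were below the floor, at 22.7, 5.83 and 8.26 in wild-type and 74.4, 58.3 and 9.95 in null cells. The first 3 of the measured sets carry the suffix _a_at, which marks probe sets that match several transcripts of 1 gene. Gfra1, another receptor at the cell surface, was not measured, with probe sets at 58.0, 8.06 and 3.25 in wild-type cells and 69.9, 8.80 and 8.72 in null cells.

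**Figure D2:**
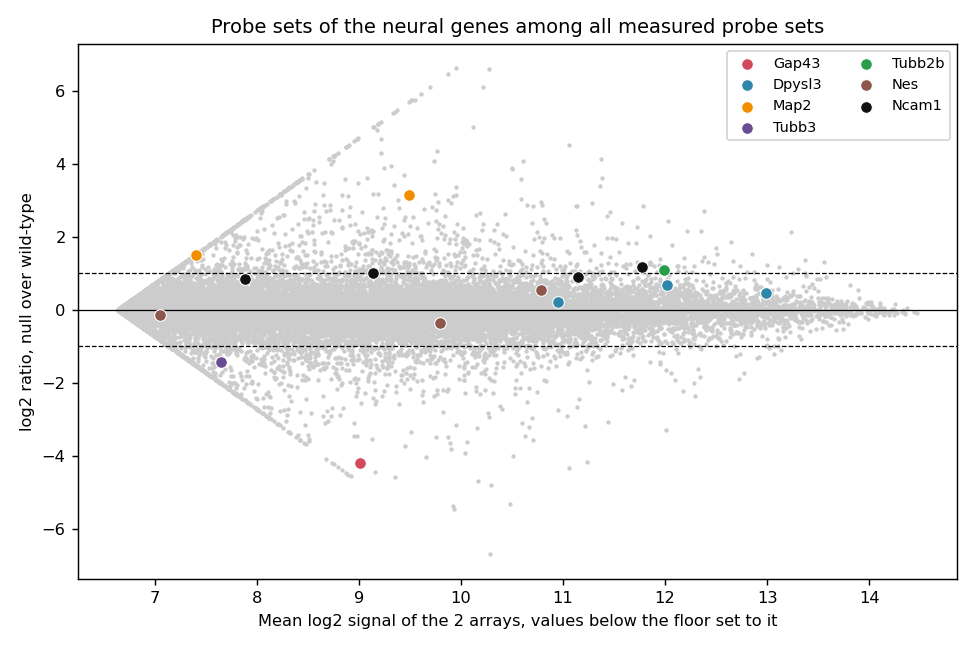
Log2 ratio of null over wild-type (y axis) against the mean log2 signal of both arrays after the floor (x axis) for all 20620 measured probe sets with 1 gene symbol (grey) and the 15 measured probe sets of the neural genes (coloured by gene). Dashed lines mark 2-fold, the diagonal edges are probe sets at the floor on 1 array, and Gap43 (−4.21) and Map2 (3.13) lie far outside the bulk while the Nes points scatter around 0.

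Among probe sets above the floor in both lines with a brighter signal of at least 2000, 9.97% of 4012 differed at least 2-fold in either direction. Gap43, Map2, Tubb2b and Ncam1 each have a probe set of this kind that did so, and Dpysl3, Nes and Ncam1 (1650 to 3107, 1.88-fold) have probe sets of this kind that did not.

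Closest relatives of the 10 genes were set beside them, from lists drawn up by family with earlier results of these arrays known. Growth cone relatives, that is the other stathmins and CRMPs and the membrane-bound phosphoproteins Basp1, Marcks and Marcksl1, had 6 of 10 genes measured, 0 at least 2-fold apart in either direction, and a median log2 ratio of −0.048. Basp1, which like Gap43 binds calmodulin and lies under the growth cone membrane, read 10384 on the wild-type and 9446 on the null array. Dpysl2, the relative of Dpysl3, read 7550 and 7452, and Stmn1, the stathmin of dividing cells, 3076 and 3328. Crmp1, another relative of Dpysl3, read 284 and 153, which is 1.86-fold lower, and was named after its value was seen. Marcks was 1.42-fold higher at the probe set used for it (8176 to 11636), and its 6 other probe sets ran from 1.14-fold lower to 1.98-fold higher.

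Tubulins other than Tubb3 and Tubb2b had 11 of 13 genes measured, and 2 of these were past 2-fold on the higher side and 0 on the lower. The median of their log2 ratios was 0.40. Tubb4a, a beta-tubulin of brain, read 155 on the wild-type and 1894 on the null array, 12.2-fold higher, at its single probe set. Tubb2a, which is nearly identical in sequence to Tubb2b, was 2.38-fold higher at the probe set 1427347_s_at (2422 to 5755) and 2.07-fold higher at 1427838_at (134 to 279). Because of this likeness, signal of Tubb2a and Tubb2b cannot be assigned with certainty to 1 of the genes. Tuba4a was 1.27-fold lower at the probe set used for it (4780 to 3778) and at least 2.23-fold lower at another (223 to 85.8). Tuba1a, at 18146 and 16280, and Tubb5, at 10690 and 10582, were close on both arrays.

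Microtubule-associated proteins other than Map2 and Mapt had 14 of 15 genes measured, and 1 of these was past 2-fold on the lower side and 0 on the higher. The median of their log2 ratios was −0.12. Mapre2, the brightest gene of this list, read 7652 and 6728 (1.14-fold lower) at the probe set used for it. Its other measured probe sets were 1.21-fold to 1.40-fold lower. Dclk1, a doublecortin-like kinase that binds microtubules, read 2313 on the wild-type and 981 on the null array (2.36-fold lower), and its other measured probe sets were 2.13-fold, 2.00-fold, 1.75-fold and 1.33-fold lower. Map1b, a protein of growing axons, read 854 and 653, and Map4, the general microtubule-associated protein of non-neuronal cells, 4318 and 3916. Of 15 intermediate filament genes, 10 were measured, and Nefm, a neurofilament subunit, was the 1 past 2-fold on the higher side (14.0 to 351, at least 3.51-fold), none (0) being past it on the lower side, and the median was 0.34. Nefm was named after its value was seen. Vim, the filament protein of fibroblasts, read 19519 and 19233.

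Adhesion molecules related to Ncam1 had 7 of 13 genes measured, and 1 of these was past 2-fold on the higher side and 2 on the lower. The median of their log2 ratios was 0.23. Nptn, the brightest gene of this list, read 10256 and 11946 (1.16-fold higher) at the probe set used for it, and 101 and 139 at another. Mcam, an adhesion molecule of the immunoglobulin superfamily found on vascular smooth muscle and endothelium, was 14.7-fold higher in null cells (158 to 2323) at its single probe set. L1cam (436 to 155) and Chl1 (373 to 148), both of the L1 family, were 2.81-fold and 2.52-fold lower. Alcam, of the immunoglobulin superfamily, was 1.88-fold higher at the probe set used for it (318 to 598) and 2.80-fold, 2.30-fold and 1.66-fold higher at its other measured probe sets. Cadm1 was at least 1.45-fold higher at the probe set used for it and at least 2.60-fold higher at another (36.7 to 260). L1cam, Chl1, Alcam and Cadm1 were named after their values were seen.

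The partners of Gfra1 in GDNF signalling gave low signal apart from the coreceptor Sdc3 (1004 and 863). Of 9 genes on the array 7 were measured, of which 0 were past 2-fold on the higher side and 1 on the lower, with a median of −0.22. The lower gene was Ret, the kinase through which Gfra1 signals, at 209 on the wild-type and 95.3 on the null array, at least 2.09-fold lower and also named after its value was seen. Gdnf itself read 140 and 19.8, at least 1.40-fold lower. The relative Gfra2 read 261 and 269 at the probe set used for it, but 445 and 33.5 at another, at least 4.45-fold lower, and 228 and 92.7 at one more, at least 2.28-fold lower. Of 10 genes for neurotrophins, their receptors and the neuronal gene repressor REST, 8 were measured and 1 was past 2-fold, the sorting receptor Sort1 (403 to 1031, 2.56-fold, but 1.41-fold at another probe set). In this list the other 7 measured genes were within 2-fold, and the median was 0.32. Rest read 1127 on the wild-type and 1188 on the null array, and its corepressor Rcor1 1969 and 2576, both within 2-fold.

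**Figure D3:**
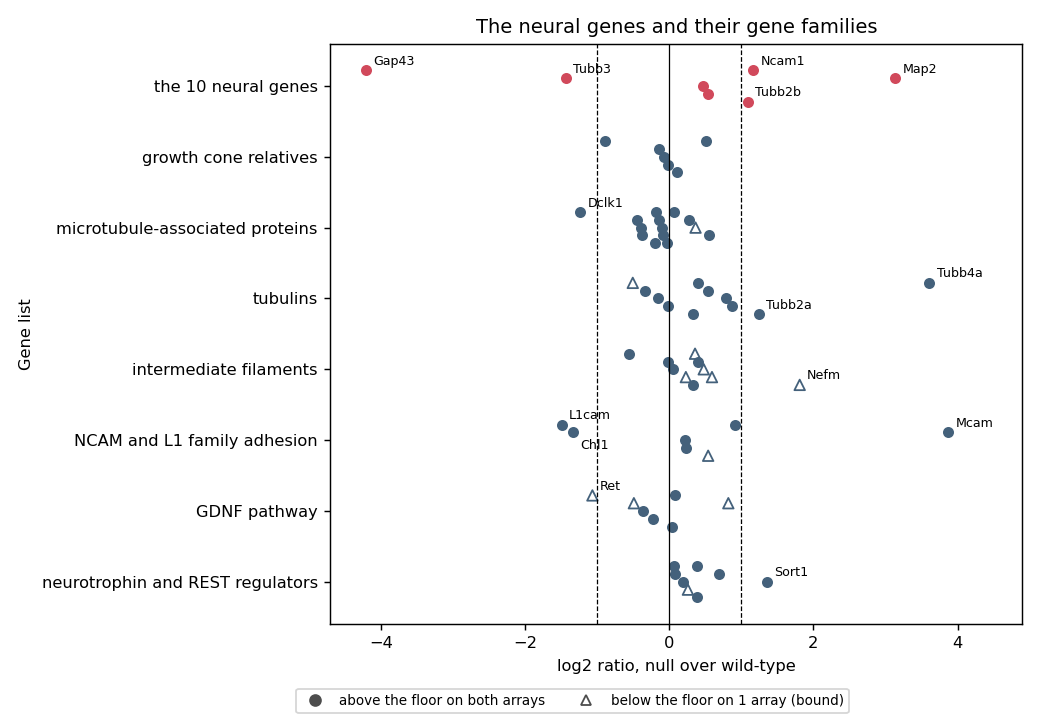
Log2 ratio of null over wild-type (x axis) for measured genes of the 10 neural genes (red) and of related families (dark blue), 1 row of points per list, with open triangles for bounds, dashed lines at 2-fold and names for genes past it. Growth cone relatives all lie within 2-fold, while Tubb4a and Tubb2a, Dclk1, Nefm, L1cam, Chl1, Mcam, Ret and Sort1 do not.

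The cell type of both lines was checked with marker genes. Fibroblast markers were measured for 17 of 17 genes and had a summed signal of 134227 on the wild-type and 160782 on the null array. Col1a2 read 15048 and 17030 at the probe set used for it, but 6616 and 16952 (2.56-fold higher) and 99.7 and 292 (at least 2.92-fold higher) at its others. The collagen Col3a1 was 4.38-fold higher in null cells at the probe set used for it and 22.7-fold higher at another (448 to 10159). The PDGF receptor Pdgfra was 9.31-fold lower at the probe set used for it, and 7.09-fold and at least 4.44-fold lower at its others. In all, 4 of the 17 were past 2-fold on the higher side, which besides Col3a1 were Col5a1 (2.73-fold), Lum (at least 7.29-fold) and Col1a1 (2.16-fold), and 2 on the lower, Pdgfra and Thy1 (at least 3.75-fold). Fn1 (fibronectin) was 1.11-fold lower at the probe set used for it and 2.01-fold lower at another (741 to 369). The median log2 ratio was 0.14, and Col1a1, Fn1 and Thy1 were named after their values were seen. Neuron markers were measured for 9 of 20 genes, with a summed signal of 3578 on the wild-type and 5419 on the null array. The synaptic genes Snap25 and Syp and the transcription factors Neurod1, Neurog1, Neurog2 and Isl1 were below the floor on both arrays. Snap25 read 2.17 and 9.49, and Syp 40.0 and 35.0. The neuronal splicing factor Rbfox3 (NeuN) read 125 and 97.9 at the probe set used for it, but 64.7 and 131 at another.

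Of the measured neuron markers, 1 was past 2-fold on the higher side and 0 on the lower. This was Uchl1, a ubiquitin hydrolase abundant in neurons, with 335 on the wild-type and 1189 on the null array (3.55-fold). Stx1a (679 to 1308), Vamp2 (433 to 540), Eno2 (844 to 930), Elavl2 (342 to 423) and Syt1 (155 to 192) were higher by less than 2-fold at the probe set used for each. Vamp2 was lower at its other probe set (340 to 315). The other Elavl2 probe sets were higher (245 to 348 and 212 to 234) or lower (192 to 162 and 162 to 154), so the probe sets of these genes disagreed. Elavl4 (161 to 126) was lower by less than 2-fold, and Syn1 (155 to 70.2) by at least 1.55-fold. The median log2 ratio of the measured neuron markers was 0.30.

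Neural progenitor markers were near or below the floor. Of 8 genes 2 were measured, Msi1 (134 to 174) and Sox3 (131 to 183), and Sox2 read 0.970 and 2.95, Sox1 6.61 and 7.74, and Pax6 69.5 and 58.1. None (0) differed 2-fold, the median log2 ratio was 0.43 and the summed signal of the list was 368 on the wild-type and 458 on the null array. Glia and neural crest markers were measured for 6 of 12 genes, with sums of 3304 and 5741 and a median log2 ratio of 0.032. Pmp22, a membrane protein of myelin that fibroblasts are also known to make, was 2.21-fold higher (2112 to 4678) and the glutamate transporter Slc1a3 at least 2.44-fold lower (244 to 23.3). Gfap (102 and 106), Mbp (492 and 495), Sox10 (126 and 169) and Erbb3 (101 and 88.8) were within 2-fold, and S100b, Olig1, Olig2 and Foxd3 were below the floor on both arrays.

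Smooth muscle markers also differed between the lines, with a signal 2-fold or more above wild-type in null cells for 5 of 8 measured genes, none 2-fold or more below it (0 of 8), sums of 21646 and 37529 and a median log2 ratio of 2.32. Calponin, Cnn1, was below the floor on the wild-type array and read 2291 on the null array, at least 22.9-fold higher. The myosin kinase Mylk was at least 7.49-fold higher at the probe set used for it (100.0 to 749), Smtn (smoothelin) 5.85-fold (290 to 1695) and Lmod1 (leiomodin) 5.58-fold (153 to 854), and the remaining gene of the 5, Myh11, named after its value was seen, at least 4.49-fold (6.31 to 449). The other Mylk probe sets were at least 1.78-fold (20.6 to 178) and at least 1.09-fold higher (57.6 to 109). Acta2, smooth muscle actin, was 1.45-fold higher at the probe set used for it (12575 to 18217). At its others Acta2 was at least 7.93-fold (63.4 to 793) and at least 1.23-fold higher (77.6 to 123). Of 9 skeletal muscle markers 2 were measured and 1, Acta1, was 2.17-fold lower, with a median of −0.92. Of 12 mesothelial and epithelial markers 5 were measured, with 2 higher (Upk3b 9.01-fold, Epcam 5.59-fold) and 1 lower (Msln 2.92-fold) and a median of 0.50. The Epcam fold came from 1447899_x_at alone, as its other probe set read 5.82 and 11.5, below the floor on both arrays. Cdh1, Krt8, Krt18 and Krt19 were also below the floor on both arrays. Of 8 endothelial and blood markers 4 were measured, with 0 higher and 1 lower, Cdh5, at least 2.08-fold and named after its value was seen, and a median of −0.37. Csf1r, the brightest of these at the probe sets used, read 244 and 213 there, and 174 and 282 at another. The part of other cell types in the differences of the neural genes was not tested, and fewer cells of a type and less RNA per cell cannot be told apart in bulk RNA.

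**Figure D4:**
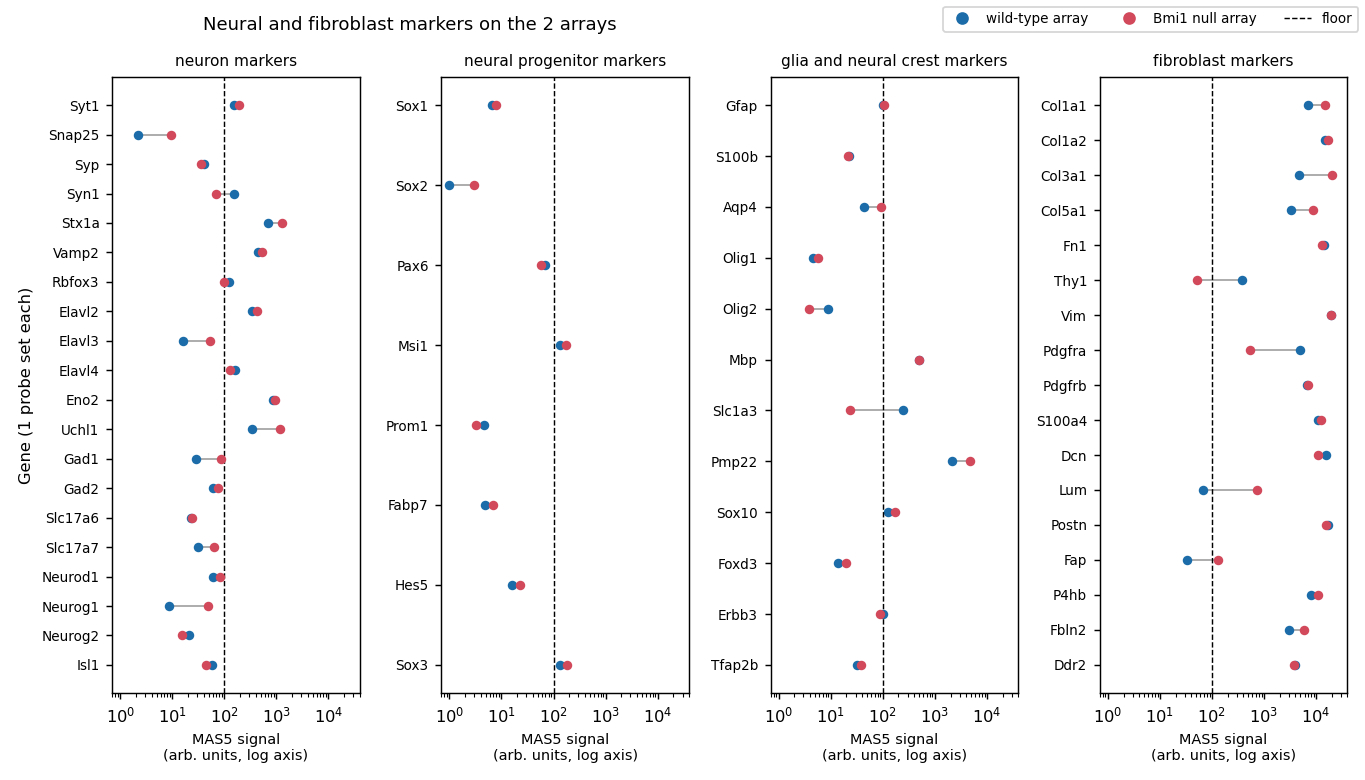
MAS5 signal (x axes, arbitrary units, log scale) of markers of neurons, neural progenitors, glia and neural crest, and fibroblasts (panels), 1 probe set per gene (y axes), on the wild-type (blue) and null (red) arrays, with the floor dashed. Most neural markers lie near or below the floor on both arrays, including Snap25 and Sox2, whereas most fibroblast markers lie far above it.

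The log2 ratios of the 7 measured genes were recomputed under 8 other settings of floor, scaling and choice of probe set. Gap43 stayed between −4.22 and −3.39, Dpysl3 between 0.46 and 0.48 and Tubb2b between 1.07 and 1.11. Map2 ranged from 1.16 to 3.15, Ncam1 from 0.56 to 1.17, Tubb3 from −1.44 to −0.72 and Nes from 0.015 to 0.56. The lowest values of Map2, Ncam1 and Nes came with the mean over all probe sets, which includes for Map2 and Ncam1 the sets that lie at the floor on both arrays. With that mean, and also without the suffixes _s_at, _x_at and _a_at (Ncam1 at 0.84), Ncam1 was under 2-fold and 2 of the measured genes, in place of 3, were at least 2-fold higher. Of all genes measured, 4.12% were at least 2-fold higher with that mean and 5.69% without the suffixes. Under the 8 settings each of the 7 genes kept the sign of its ratio, but this could hardly have come out otherwise. Gap43, Tubb3 and Tubb2b have a single probe set each, and all settings but the mean used the same Nes probe set. No direction is read from it for Nes.

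**Figure D5:**
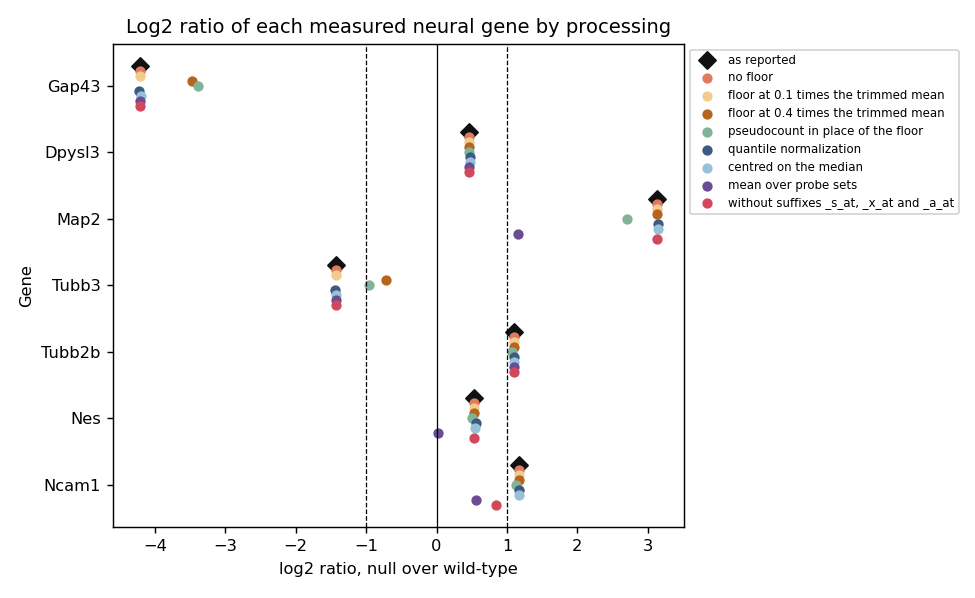
Log2 ratio of null over wild-type (x axis) of the 7 measured neural genes (y axis) as reported (black diamond) and under 8 other settings (coloured points), with dashed lines at 2-fold. Gap43, Dpysl3, Tubb2b and Map2 stay on their side of the 2-fold lines throughout, Map2 coming down to 1.16 with the mean over probe sets, whereas Ncam1 lies at 0.56 in that setting and Tubb3 at −0.72 with the higher floor.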

How the data were processed

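Total RNA of a Bmi1 wild-type and a Bmi1 null MEF line was converted to biotinylated cRNA and hybridised to 1 Affymetrix mouse expression array each. The deposited values were linear intensities per probe set, made by the authors with MAS5 and scaled so that both arrays had the same trimmed mean (2% removed at each end); the settings of this scaling are not given in the sources used here. Probe sets were named from the platform annotation, and 34754 of 34958 single symbols were found through Entrez identifiers in RefSeq (GRCm38), with 0 changed. Intensities below 0.2 times the trimmed mean were set to this floor, and log2 ratios of null over wild-type were taken with Python 3.11.15, numpy 2.4.6 and pandas 2.3.3. The code was tested on simulated data.

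The 10 genes, the 17 other lists and the rule for named genes were chosen with earlier results of these data known. Named were all probe sets of the 10 genes, Bmi1 and sex chromosome genes, and measured neural markers. Of each list, up to 4 genes at least 2-fold apart with a brighter signal of at least 500 were named, besides its brightest gene. The few relatives and list totals given for comparison lie outside this rule. With 1 array per group no test was possible, and the number of arrays limits the precision. Alternatives were other floors, a pseudocount, quantile normalization, median centring, the mean over probe sets, and leaving out probe sets with suffixes _s_at, _x_at and _a_at.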

Additional observations from a re-analysis of the deposited data

Results flagged for a closer look

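A probe set annotated to both Tubb2b and the pseudogene Tubb2a-ps2 was left out of all counts above because it names no single gene. It read 1005 on the wild-type array and 1780 on the null array, a null over wild-type fold of 1.77, and is listed here because it carries signal above the wild-type level outside the main measurement. The probe set given to Tubb2b alone was 2.14-fold higher. The difference between these folds was not tested.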

How the results depend on the processing

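With 1 array per group leaving out a replicate was not possible. No paired analysis was possible because each group had 1 array. Of 38 recomputed counts and medians of the 10 genes, 32 stayed within 1.5 times the reported count (among them the genes at least 2-fold higher, 2 against 3 with the mean over probe sets and again without the suffixes, Ncam1 being under 2-fold there) or within the probe set SD of the reported median, and 6 did not. Without a floor 10 probe sets of 29 were at least 2-fold higher, against 5 of 15, since ratios near background then entered. With the higher floor (0.4 times the trimmed mean), 1 gene and 1 probe set were at least 2-fold lower, against 2 and 2, as Tubb3 was then under 2-fold. When the floor was replaced by a pseudocount, 1 gene and 1 probe set were likewise at least 2-fold lower. Without the suffixes _s_at, _x_at and _a_at, 3 probe sets of 10 measured were at least 2-fold higher, fewer probe sets being counted. The background moved too. Of all genes, 12.9% were at least 2-fold higher without a floor and 5.69% without the suffixes, against 5.73% as reported. At least 2-fold lower were 4.52% with the higher floor and 2.58% with the pseudocount, against 5.16%. Such shares were computed by gene and not by probe set. No ratio of the 7 genes was reversed in these settings, but most settings reuse the same probe sets, so this says little about direction. Ratios of signals near the floor (Tubb3, the second Map2 probe set) depend on it, and no value here carries an error between cultures.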
